A study of Homo sapiens with 6 samples.

Results

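Lung lineage factors and secretory products were followed as a set of 9 genes, taken by symbol from the 58302 gene rows of the expression table. They are the transcription factors FOXA1, FOXA2 and NKX2-1, the homeodomain protein HOPX, the surfactant protein SFTPB, the folding enzyme AGR2 and the mucins MUC1, MUC5AC and MUC5B. All 9 had a row. The cells were A549, a lung adenocarcinoma line at a passage between 6 and 8, grown in RPMI medium with fetal bovine serum. They were transfected with SNHG5, a long non-coding RNA that hosts small nucleolar RNAs (overexpression, 3 libraries), or with Vector alone (control, 3 libraries). No untransfected library was analysed here, and every level below belongs to transfected cells of 1 line.

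In the lung, FOXA1 and FOXA2 are forkhead factors that open chromatin in endoderm-derived epithelium, and NKX2-1 is the homeodomain factor that defines the lung bud and maintains alveolar cells. NKX2-1 and the FOXA factors act together on surfactant genes. In airway secretory cells AGR2 assists the folding of gel-forming mucins in the endoplasmic reticulum. Loss of NKX2-1 in lung adenocarcinoma is known to go with mucinous and gut-like gene expression.

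Of the 9 genes, A549 cells expressed 6, with at least 1 CPM (the count relative to the TMM-scaled library total) in every library. These were FOXA1, FOXA2, AGR2, MUC1, MUC5AC and MUC5B. NKX2-1, HOPX and SFTPB were not seen, with at most 3 counts in any library. The cells thus held the 2 forkhead factors and both gel-forming mucins without a measurable transcript of the lung-defining factor or of surfactant protein B. None of the 6 differed between the groups past the edgeR threshold, an adjusted p of 0.05. In such bulk libraries fewer cells of a type and less RNA per cell cannot be told apart.

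The upstream sequences of 4 genes are shown because they set an expressed secretory gene (AGR2) and an expressed factor (FOXA1) beside 2 genes that were not seen (NKX2-1 and SFTPB). RefSeq (build GRCh38.p14) held promoter entries for 6 of the 9 genes, 10 entries in all. Printed are the bases upstream of a RefSeq start that lie outside annotated exons, 5′ to 3′ on the gene's own strand, which is the minus strand for all 4. They span chr7:16805081-16805249 for AGR2, chr14:37595349-37595499 for FOXA1, chr14:36519694-36519806 for the second NKX2-1 start and chr2:85668252-85668449 for the second SFTPB start. All 4 stretches lie within the annotated bounds of their genes, downstream of the outermost annotated start. The window of the first SFTPB start, chr2:85668742-85668991, lies outside the annotated gene and is not printed. Capitals mark a match to 1 of the motifs named after the sequences.
AGR2: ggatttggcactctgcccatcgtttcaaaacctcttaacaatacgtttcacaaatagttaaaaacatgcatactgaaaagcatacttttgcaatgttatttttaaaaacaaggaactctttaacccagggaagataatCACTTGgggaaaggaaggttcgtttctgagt
FOXA1: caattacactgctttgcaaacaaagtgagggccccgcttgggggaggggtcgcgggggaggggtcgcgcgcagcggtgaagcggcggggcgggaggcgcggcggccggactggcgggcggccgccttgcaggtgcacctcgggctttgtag
NKX2-1: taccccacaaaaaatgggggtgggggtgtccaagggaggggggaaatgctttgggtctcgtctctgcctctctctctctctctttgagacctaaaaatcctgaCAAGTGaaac
SFTPB: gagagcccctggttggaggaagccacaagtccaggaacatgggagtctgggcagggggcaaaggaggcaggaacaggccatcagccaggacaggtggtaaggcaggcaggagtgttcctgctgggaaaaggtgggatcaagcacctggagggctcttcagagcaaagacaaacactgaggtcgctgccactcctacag

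The 250 bases upstream of each start were searched on both strands for TGTTTAC and TATTTAC, forms of the forkhead motif, for CAAGTG, a core of NKX2 homeodomain sites, and for TATAAA. Among 35116 RefSeq windows of that length, 2.98% held TGTTTAC, 2.39% TATTTAC, 9.5% CAAGTG and 10.7% TATAAA. AGR2 had CAAGTG on the reverse strand, beginning at position -112 from the start. FOXA1 had it on the reverse strand at position -12, outside the printed stretch. The second NKX2-1 start had CAAGTG at -147 and, in an annotated exon that is not printed, TGTTTAC at -130, both forward. HOPX had TATTTAC on the reverse strand at -73 of its first start. MUC1 had TATAAA at -24 and -30 of its 2 starts, which lie close together. The SFTPB windows held none of these 4 strings, and no matches overlapped one another. Other forms of forkhead and NKX2 sites were not searched, so a window without a match may still hold such a site. These are matches of letters only, and nothing was measured on binding.

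The labels were checked on SNHG5. Its level was 153, 126.3 and 62.8 CPM in overexpression 1, 2 and 3, and 60.9, 101.1 and 55.0 CPM in control 1, 2 and 3. The groups overlapped, since the library labelled overexpression 3 lay below control 2 (log2 difference 0.66, SE 0.37, edgeR adjusted p 0.746). Directions below are therefore between libraries as labelled. Control 2 stood apart in composition, with MALAT1, a nuclear RNA, at 28.0 CPM against 118.2 to 475.3 CPM elsewhere, and mitochondrial transcripts at 2.57% of counts, the lowest share of the 6 libraries, against up to 6.16% elsewhere. Library totals were 13378079 to 16999604 counts, so that 3 counts, the limit that a count of 0 allows, corresponded to 0.174 to 0.218 CPM. That limit covers counting error only.

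Levels of different genes were compared per kilobase of exon, as the mean CPM per kb over the 6 libraries. AGR2 was highest at 31.6 CPM per kb, above 93.6% of 19817 protein-coding genes. FOXA2 followed at 12.9 CPM per kb, above 82.9% of them. MUC5AC and MUC5B lay together at 3.60 and 3.51 CPM per kb, above 60.8% and 60.4%. FOXA1 stood at 1.59 CPM per kb and MUC1 at 0.981 CPM per kb, above 50.4% and 45.7%. Only 58.4% of these protein-coding genes were expressed, with at least 1 CPM in every library. The ranks therefore count many unexpressed genes, and FOXA1 and MUC1 stood low among the expressed ones.

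**Figure D1:**
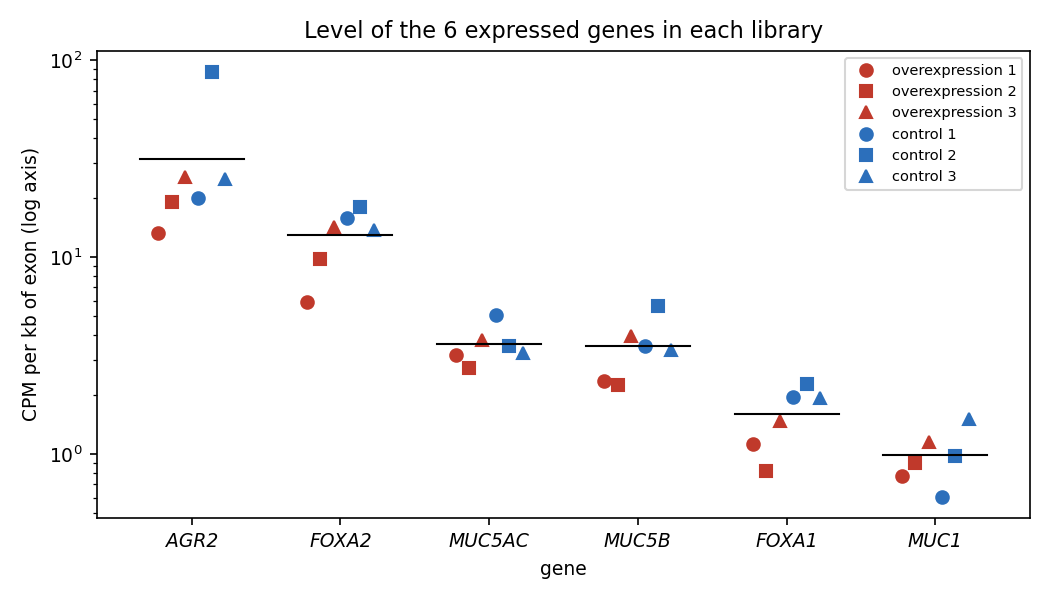
CPM per kb of exon on a log axis for the 6 expressed genes, ordered by mean level, with 1 point per library (red, overexpression; blue, control; shape, replicate number) and a black line at the mean of the 6. AGR2 runs from 13.3 to 86.9 CPM per kb with control 2 far above the rest, and MUC5AC and MUC5B cover nearly the same range.

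The order held within libraries for most neighbours. AGR2 exceeded FOXA2 in 6 of 6 libraries although their ranges over libraries overlapped. FOXA2 exceeded MUC5AC in 6 of 6 with no overlap. MUC5AC and MUC5B could not be ordered, each being higher in 3 of 6. MUC5B exceeded FOXA1 in 6 of 6, and FOXA1 exceeded MUC1 in 5 of 6, with overlapping ranges in both cases.

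FOXA1 (ENSG00000129514, chromosome 14, 37589984 to 37596059, minus strand, build GRCh38) was the only gene of the 6 whose groups did not overlap. It had 74, 45 and 101 counts in overexpression 1, 2 and 3, or 4.48, 3.27 and 5.87 CPM. The controls 1, 2 and 3 had 116, 138 and 125 counts, or 7.72, 9.04 and 7.69 CPM. Every library labelled overexpression thus lay below every control, at 4.54 ± 1.30 against 8.15 ± 0.771 CPM (SD, n = 3 each). Of all 15631 genes tested, 7.52% were likewise lower without overlap, and 13.5% did not overlap in either direction. The log2 difference was -0.84 (SE 0.29, unadjusted p 0.0207, edgeR adjusted p 0.643), so that it did not pass. The exact permutation p on log2 CPM was 0.1, which is the smallest that 3 libraries against 3 can give. FOXA1 was lower in all 3 same-numbered pairs, by -0.77, -1.43 and -0.38, a pattern shared by 17.7% of genes. A short end of 213 bases overlaps TTC6 on the opposite strand, and TTC6 had at most 4 counts in any library.

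FOXA2 (ENSG00000125798, chromosome 20, 22581005 to 22585455, minus strand) was the more abundant of the 2 forkhead factors. Per kb of exon it exceeded FOXA1 by 5.27-fold to 11.9-fold within libraries. Its level was 15.4, 25.4 and 37.1 CPM in overexpression 1, 2 and 3, from 255, 350 and 638 counts. In controls 1, 2 and 3 it was 40.9, 46.6 and 35.7 CPM, from 614, 712 and 581 counts. Overexpression 1 and 2 were below every control, whereas overexpression 3 lay within the control range. The means were 26.0 ± 10.8 and 41.1 ± 5.45 CPM (SD, n = 3). EdgeR fitted -0.66 on the log2 scale (SE 0.32, adjusted p 0.746), and the exact permutation p was 0.2. In the same-numbered pairs the differences were -1.40, -0.87 and 0.05. AL121722.1, an annotated protein-coding gene on the same strand, overlaps FOXA2 over 3257 bases with 0, 0 and 24 counts across the SNHG5 libraries in order and 56, 18 and 5 across the Vector libraries. How the authors assigned reads shared by the 2 is not given in the sources used here, so the FOXA2 values carry that uncertainty.

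NKX2-1 (ENSG00000136352, chromosome 14, 36516392 to 36521149, minus strand) lies 1069 kb from FOXA1 on the same chromosome. It had 0 counts in overexpression 1, 2 and 3 and in control 3, and 1 count each in control 1 and control 2. All 6 values lie below the floor of 3 counts, so no fold is given. Near it, SFTA3 and the antisense gene NKX2-1-AS1, chosen after their values were seen, had 0 counts in every library. NKX2-8, a related homeobox gene 59.4 kb away, named likewise, had 8 to 52 counts. On the opposite strand NKX2-1-AS1 overlaps NKX2-1 over 1872 bases and AL132857.2 over 4758 bases. AL132857.1 overlaps NKX2-1 over 3130 bases on the same strand. Both AL132857 genes also had 0 counts in every library. How reads shared with these genes were assigned is not given, so the NKX2-1 counts carry that uncertainty.

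HOPX (ENSG00000171476, chromosome 4, 56647988 to 56681899), an atypical homeodomain protein known as a marker of alveolar type 1 cells, had 0 counts in each of the 6 libraries. SFTPB (ENSG00000168878, chromosome 2, 85657314 to 85668741), which encodes the surfactant protein needed for the alveolar surface film, also had 0 counts in each. Both counts allow up to 0.174 to 0.218 CPM per library. AC108215.1, which overlaps HOPX over 3226 bases on the same strand, also had 0 counts in every library. The assignment of reads shared by the 2 is not given either. USP39, the protein-coding gene nearest to SFTPB at 8.0 kb and chosen after its values were seen, had 1184 to 1546 counts.

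AGR2 (ENSG00000106541, chromosome 7, 16791811 to 16833433, minus strand), a protein disulphide isomerase of secretory cells, was the most uneven of the set. It stood at 37.7, 53.9 and 72.5 CPM in overexpression 1, 2 and 3 and at 56.9, 247.3 and 70.5 CPM in controls 1, 2 and 3. Control 2 held 3777 counts and exceeded the next library 3.41-fold, while the other 2 controls lay among the overexpression libraries. The means were 54.7 ± 17.4 and 125 ± 106 CPM (SD, n = 3), or -1.19 on the log2 scale (SE 0.56, adjusted p 0.746 by edgeR, exact permutation p 0.3). Without control 2 the log2 difference was -0.22 (edgeR adjusted p 0.918). In the same-numbered pairs it was -0.59, -2.20 and 0.04. AGR3, the neighbouring paralog 26.0 kb away, had 0 counts in all 6 libraries.

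MUC1 (ENSG00000185499, chromosome 1, 155185824 to 155192916, minus strand) is a membrane-bound mucin of the apical epithelial surface. Its level was 3.63, 4.21 and 5.40 CPM in overexpression 1, 2 and 3, and 2.86, 4.58 and 7.07 CPM in controls 1, 2 and 3, from 43 to 115 counts. The controls spanned the whole overexpression range. The means were 4.42 ± 0.902 and 4.84 ± 2.12 CPM (SD, n = 3), and the log2 difference of -0.13 (SE 0.38, edgeR adjusted p 0.923, exact permutation p 0.9) turned to 0.24 without control 3. A gene model named AL713999.1, with 1 count in all, overlaps MUC1 over 1449 bases on the same strand.

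MUC5AC (ENSG00000215182, chromosome 11, 1157953 to 1201138) and MUC5B (ENSG00000117983, chromosome 11, 1223066 to 1262172) encode the gel-forming mucins of airway mucus and are neighbours on the plus strand, 21.9 kb apart. MUC5AC was at 55.3, 47.8 and 66.1 CPM in overexpression 1, 2 and 3 and at 88.7, 61.9 and 56.9 CPM in controls 1, 2 and 3. Overexpression 3 exceeded 2 of the controls, so that the groups overlapped. The means were 56.4 ± 9.21 and 69.2 ± 17.1 CPM (SD, n = 3), or -0.29 on the log2 scale (SE 0.24, adjusted p 0.753 by edgeR, exact permutation p 0.4), and -0.08 without control 1.

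MUC5B was at 43.4, 41.8 and 74.2 CPM in overexpression 1, 2 and 3 and at 65.5, 104.7 and 62.3 CPM in controls 1, 2 and 3. Overexpression 1 and 2 were below every control, and overexpression 3 was above 2 of them. The means were 53.1 ± 18.2 and 77.5 ± 23.6 CPM (SD, n = 3), or -0.54 on the log2 scale (SE 0.31, adjusted p 0.746 by edgeR, exact permutation p 0.3). The ratio of MUC5AC to MUC5B per kb of exon ran from 0.630 in control 2 to 1.44 in control 1. It was 1.36, 1.22 and 0.951 in overexpression 1, 2 and 3 and 0.974 in control 3. The 2 genes are paralogs with repeats, and reads could be shared between them or lost. MUC2, a gel-forming mucin 47.4 kb from MUC5AC, had at most 2 counts in any library.

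Set side by side, all 6 tested genes had a lower fitted level in the libraries labelled overexpression, as did 49.3% of all genes tested, and their median log2 difference was -0.60 against 0.01 over all genes. By edgeR 0 of the 6 passed, where 0.128% of all genes did (0.102% lower, 0.0256% higher), and 1 of the 6, FOXA1, had an unadjusted p under 0.05, where 6.49% of all genes did. DESeq2 and limma-voom called 0 of the 6 as well, where 1.7% and 0.147% of all genes passed. At an unadjusted p under 0.05 they had 2 and 1 of the 6, where 1161 of 15625 and 1053 of 15631 genes did. With the replicate number as a block 0 of the 6 passed either, where 0.467% of all genes did. Without overexpression 3, whose SNHG5 level lay among the controls, FOXA1 was at -1.07, FOXA2 at -1.01 and AGR2 at -1.45. MUC5AC was at -0.43, MUC5B at -0.86 and MUC1 at -0.31. The edgeR adjusted p was 0.117, 0.131, 0.267, 0.35, 0.157 and 0.691 in that order, so 0 of the 6 passed. In that fit 3390 of 15964 genes tested had an unadjusted p under 0.05 by edgeR, against 1015 of 15631 in the main fit. It called 20 genes higher and 144 lower, where the main fit called 4 and 16. FOXA2 was at -0.39 without overexpression 1. MUC5B was at -0.27 without control 2.

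**Figure D2:**
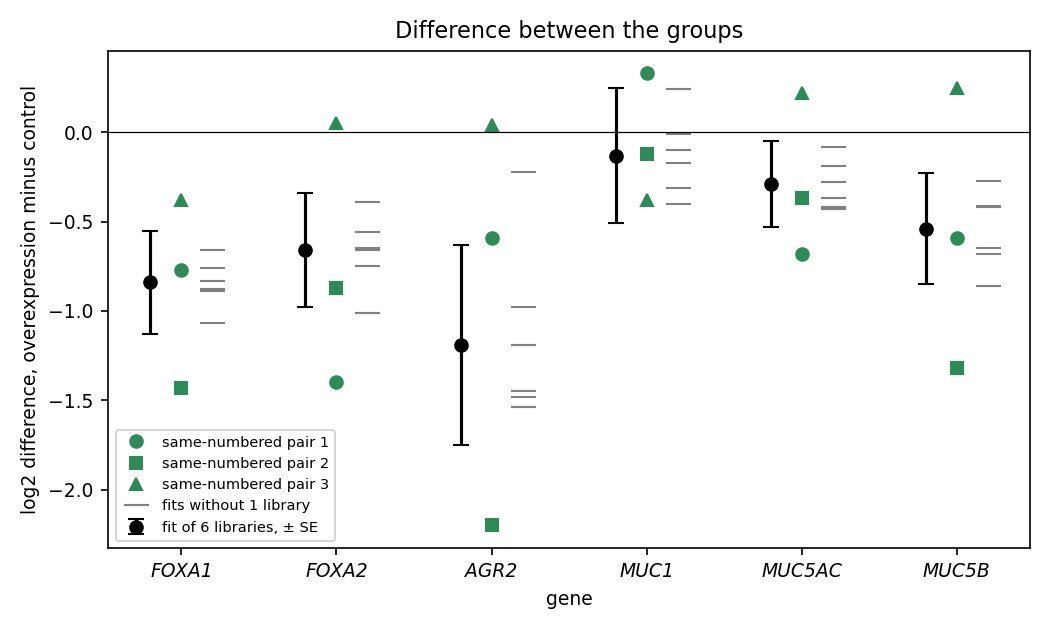
Log2 difference, overexpression minus control, for the 6 tested genes: black, the edgeR fit of all 6 libraries with its SE; green, the 3 same-numbered pairs; grey, the 6 fits without 1 library. FOXA1 is below 0 in every pair, pair 3 lies above 0 for FOXA2, AGR2, MUC5AC and MUC5B, and AGR2 moves to -0.22 without control 2.

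Control 2 held the highest level of 4 of the 6 genes, FOXA1, FOXA2, AGR2 and MUC5B, and of 25.8% of all genes tested. The airway secretory markers followed the same library. Of the 14 listed genes, 4 were tested (AGR2, FCGBP, LCN2 and SLPI), and all 4 were highest in control 2. FCGBP, a mucus protein that binds immunoglobulin Fc, was at 15.2 CPM there against 2.24 to 5.52 CPM elsewhere. SLPI, a secreted protease inhibitor, was at 12.8 CPM against 1.33 to 3.92 CPM, and LCN2, a secreted iron-siderophore binder, at 8.91 CPM against 0.599 to 2.58 CPM. The summed level of the list was 285.1 CPM in control 2 and 43.4 to 82.1 CPM in the other libraries. AGR2 alone made up 247.3 CPM of that sum in control 2 and 37.7 to 72.5 CPM elsewhere, so the sum mostly restates AGR2. None of the 4 passed by edgeR, and 0 had an unadjusted p under 0.05. The part of the low MALAT1 and mitochondrial shares of control 2 in these levels was not tested.

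**Figure D3:**
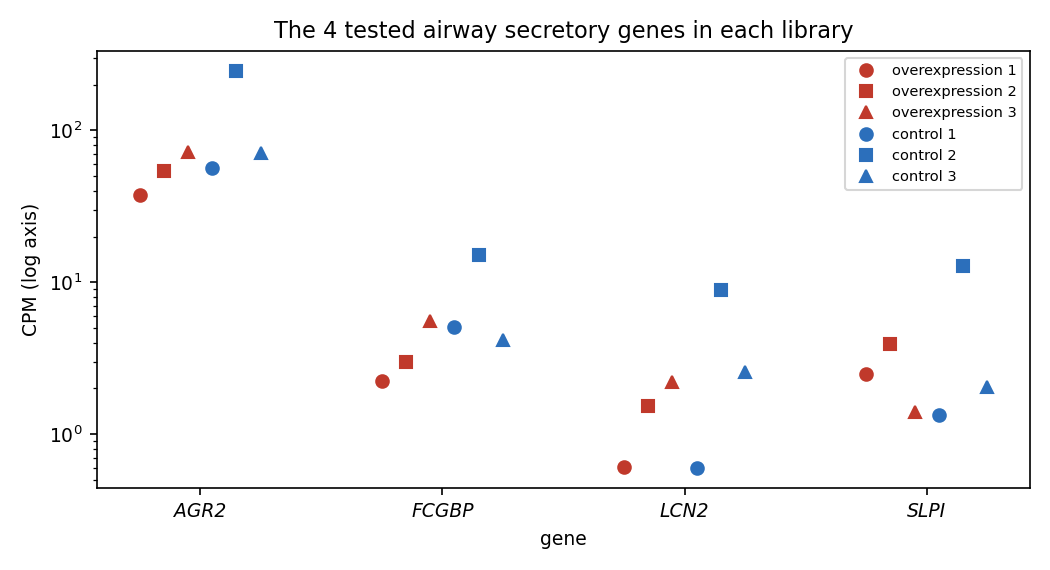
CPM on a log axis for AGR2, FCGBP, LCN2 and SLPI, 1 point per library (red, overexpression; blue, control; shape, replicate number). Control 2, the blue square, is the highest point for all 4 genes, at 247.3, 15.2, 8.91 and 12.8 CPM.

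The wider lists showed which other lung genes A549 cells held. Over 13 lists with 136 distinct genes, 61 were expressed by the same criterion, 25 were present as traces above 3 counts in some library, and 50 were not seen. For comparison, 58.4% of protein-coding genes and 44.9% of the listed genes were expressed. Among 24 lung transcription factors 16 were expressed, with KLF5, ID2, SOX9 and FOXP1 at the highest mean levels (150.9, 71.4, 69.1 and 57.5 CPM). SOX9, a factor of the distal lung bud, was at 49.9 ± 8.04 against 88.4 ± 4.13 CPM with no overlap (SD, n = 3, log2 difference -0.82, SE 0.19, edgeR adjusted p 0.21). None of the 18 tested passed by edgeR, 2 had an unadjusted p under 0.05, and their median log2 difference was -0.40. Of all genes tested, 6.49% had such a p, 7.52% were lower without overlap, as SOX9 was, and the median was 0.01.

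Alveolar type 2 markers were split. Of 14, 6 were expressed, namely the lipid transporter ABCA3, the lipid-remodelling enzyme LPCAT1, DRAM1, LRRK2, CTSH and LAMP3. Named after their values were seen, SFTPA1, SFTPA2, SFTPC, SLC34A2 and PGC had 0 counts in every library, as SFTPB did. LPCAT1, DRAM1 and ABCA3 were at mean levels of 150.5, 109.5 and 85.0 CPM. The log2 differences of these 3 were 0.12, 0.07 and 0.02. LRRK2, a kinase of lamellar body-bearing cells, was at 40.2, 46.3 and 38.8 CPM in overexpression 1, 2 and 3. In controls 1, 2 and 3 it was at 26.0, 15.3 and 26.6 CPM, without overlap. It did not pass (log2 difference 0.88, SE 0.25, edgeR adjusted p 0.439). Of all genes tested, 13.5% did not overlap in either direction. LAMP3, a lysosomal membrane protein, was the 1 gene of the 73 tested list genes that passed, lower by -4.20 on the log2 scale (SE 0.45, edgeR adjusted p 0.0291). It stood at 2.18, 1.24 and 3.49 CPM in overexpression 1, 2 and 3 and at 27.4, 55.3 and 46.0 CPM in controls 1, 2 and 3. In the same-numbered pairs it was lower by -3.57, -5.35 and -3.67. The call was lost in the fits without overexpression 1, overexpression 2, control 2 or control 3, in which edgeR called at most 1 gene of all those tested. The median over the 6 tested type 2 markers was 0.05.

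Of the airway secretory markers, 3 of 14 were expressed and 9 were not seen, among them SCGB1A1, the club cell secretoglobin, with 0 counts throughout, named after its values were seen. Of 14 mucins, 5 were expressed. MUC13, a membrane mucin of the gut surface, was at 29.8 ± 11.0 against 29.7 ± 6.07 CPM (SD, n = 3, log2 difference 0.01, SE 0.32). MUC3A, which shares repeats with related mucins, was at 6.69 ± 2.02 against 6.80 ± 1.20 CPM. Of the 21 genes for mucin folding and O-glycosylation 15 were expressed, led by P4HB, PDIA6, PDIA4 and GALNT2 at mean levels of 469.3, 393.0, 339.6 and 327.4 CPM. By edgeR 0 of 6 tested mucins and 0 of 17 tested folding and glycosylation genes passed, with 0 and 0 at an unadjusted p under 0.05 and median log2 differences of -0.07 and -0.02. Alveolar type 1 markers had 4 of 8 expressed, with CAV1, the caveolin coat protein, at a mean of 978.9 CPM. CAV2, EMP2 and RTKN2 followed at 361.1, 31.7 and 3.27 CPM. None of the 5 tested passed by edgeR, 0 had an unadjusted p under 0.05, and the median was -0.21.

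**Figure D4:**
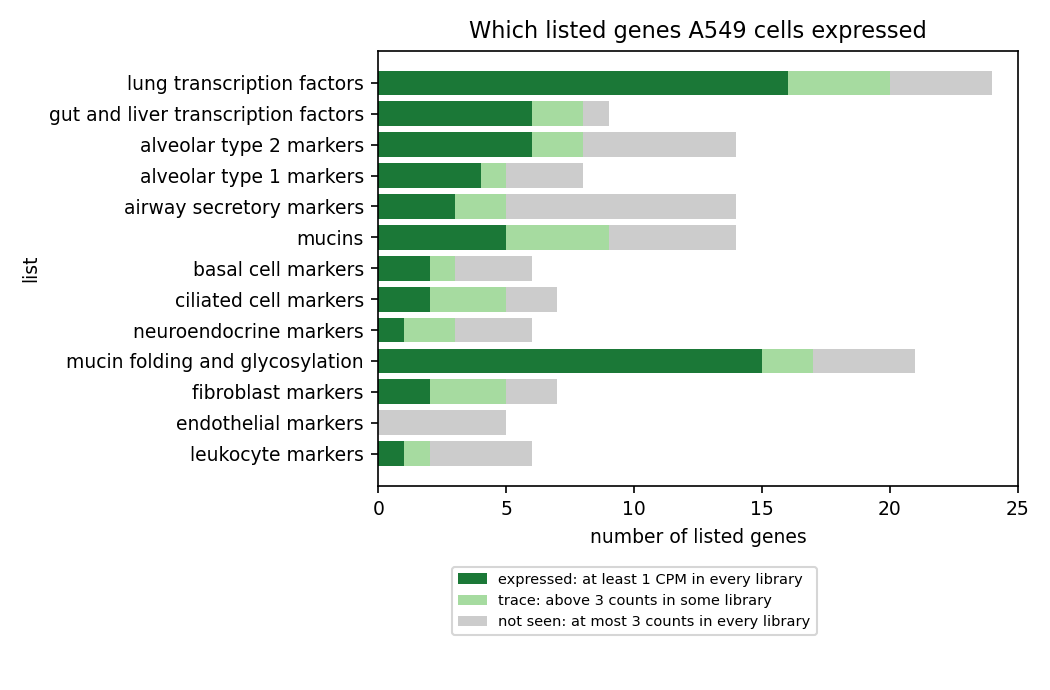
Number of listed genes that were expressed (dark green), present as traces (light green) or not seen (grey) in each of the 13 lists. Lung transcription factors (16 of 24) and mucin folding and glycosylation genes (15 of 21) are mostly expressed, while 9 of 14 airway secretory markers and all 5 endothelial markers are not seen.

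Markers of other cell types were checked in 3 lists. All 5 endothelial markers were not seen, with a summed level of 0 to 0.133 CPM. Of 6 leukocyte markers, PTPRC, CD3E and LYZ had 0 counts in every library. CD68, a lysosomal glycoprotein, was expressed, at a mean of 27.5 CPM per kb of exon, above 92.5% of protein-coding genes. It accounted for most of that list, at 25.7 to 39.4 CPM in the overexpression libraries and 75.1 to 91.5 CPM in the controls (log2 difference -1.32, SE 0.23, edgeR adjusted p 0.0948). Of 7 fibroblast markers 2 were expressed. The list summed to 5.45 to 21.7 CPM, with COL1A1 at a mean of 8.26 CPM and COL1A2 and DCN not seen. By edgeR 0 of the 3 tested fibroblast markers and 0 of the 1 tested leukocyte marker passed, with 0 and 1 at an unadjusted p under 0.05 and medians of -0.38 and -1.32. Of all genes tested, 6.49% had such a p and the median was 0.01. The part of these markers in the levels of the 9 genes was not tested.

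The patterns over the 6 libraries were compared by Pearson correlation of log2 CPM, as a description, among 10563 protein-coding genes with a mean of at least 5 CPM. The 3 genes most like FOXA1 were FBXL6, C19orf66 and APOL1, with r of 0.993, 0.992 and 0.991. For FOXA2 they were ZNF76, CCDC107 and MGRN1 (0.999, 0.996 and 0.995), and for AGR2 they were GNPTG, TM4SF4 and MZT2A (0.997, 0.995 and 0.994). MUC5B was most like TNFSF9, DCTN3 and CADM4 (0.995, 0.992 and 0.987), MUC5AC most like TOE1, ING1 and CCDC92 (0.989, 0.965 and 0.965), and MUC1 most like SLC37A3, ENDOD1 and ECSIT (0.973, 0.972 and 0.958). Each r rests on 6 values from the same libraries. Among the 6 genes themselves, MUC5B ran closest to AGR2 (0.88), FOXA1 (0.86) and FOXA2 (0.84), and FOXA1 and FOXA2 stood at 0.76. MUC5AC and AGR2 stood at 0.10, and MUC1 and MUC5AC at -0.45.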

How the data were processed

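RNA was sequenced from A549 cells in 3 libraries transfected with SNHG5 and 3 with Vector. FastQC, HISAT2 and build GRCh38 are named, per the submitters' processing notes. Which program counted the reads, with which strand setting, is not given in the sources used here, and the kit named in the labels' protocols does not mark strand. Deposited were whole-number counts for each gene, used for all tests, and FPKM values, used only to read the gene length behind them. For MUC1 the authors' FPKM rest on 10153 bases, against 4717 bases of distinct exon in GENCODE 29, so levels per kb were computed from counts and that exon union. The lengths were 6356 against 3982 bases for FOXA1 and 3907 against 2845 for AGR2. They were closer for FOXA2 (2673 against 2603) and MUC5B (19333 against 18598), and equal for MUC5AC (17448). Comparisons of genes per kb therefore depend on the length used.

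Counts were fitted over all genes with edgeR 4.0.16 in R 4.3.3 (TMM, filterByExpr, robust quasi-likelihood test, two-sided), with Benjamini-Hochberg adjustment over 15631 genes and a threshold of 0.05. The SE is the log2 difference over the square root of F. Log2 CPM used a prior count of 2. Single genes were also compared by a two-sided exact permutation test. The edgeR step was tested on simulated data. DESeq2 1.42.0, limma-voom (limma 3.58.1), other size factors, other filters and fits without 1 library were alternatives. Within groups, counts differed by a chi-square of 25.7 to 94.9 per degree of freedom, so each library was counted as 1 replicate. The chi-square does not show whether the libraries came from separate cultures. P-values set the difference between the groups against the spread between these libraries.

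The groups share replicate numbers. Deviations from group means correlated at 0.35, 0.16 and 0.29 for numbers 1, 2 and 3, all above 0.1, and between different numbers at -0.34 to 0.12. Overexpression 2 with control 1, of different numbers, reached 0.12 and so also passed that minimum of 0.1. The correlations therefore do not settle whether the numbers pair the libraries. The main fit has no block, and the fit with the replicate block is given beside it.

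The members and lists were chosen with earlier results of these data known. Named are all members, SNHG5, per list the genes past the threshold and up to 4 with the highest mean CPM, and the 3 genes most like each expressed member. Some of the genes this rule takes are not reported here. Others were named after their values were seen.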

Additional observations from a re-analysis of the deposited data

How the results depend on the processing

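With the replicate block, 0 of the 6 tested genes passed by edgeR, as without it, and the log2 differences were -0.87 for FOXA1, -0.74 for FOXA2, -0.90 for AGR2, -0.07 for MUC1, -0.28 for MUC5AC, -0.55 for MUC5B and 0.61 for SNHG5 (2 of the 6 had an unadjusted p under 0.05). Over all genes the block raised the calls from 20 to 73 (0.467%). In that fit 1452 of 15631 genes had an unadjusted edgeR p under 0.05. The block changed no call among the 9 genes, SNHG5 or the lists. No alternative called any of the 9 genes. Over the fits without 1 library the log2 differences ran from -1.07 to -0.66 for FOXA1, -1.01 to -0.39 for FOXA2, -1.54 to -0.22 for AGR2, -0.43 to -0.08 for MUC5AC, -0.86 to -0.27 for MUC5B and 0.39 to 0.97 for SNHG5. MUC1 ran from -0.40 to 0.24, reversing without control 3. Of the listed genes 1 was lower by edgeR, against 3 with DESeq2 (LAMP3, SOX9 and CD68) and 0 to 1 without 1 library. The cause was not tested. The number of expressed genes was 6 under both other level criteria and without each library. For NKX2-1, HOPX and SFTPB, levels under 0.174 to 0.218 CPM were out of reach at this depth.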

Other observations

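Some transcription factors of gut and liver were present beside the forkhead factors. Of 9 listed, 6 were expressed, 2 were traces and 1 was not seen. Named after their values were seen, CDX2 had at most 4 counts in any library and PDX1 at most 2. ONECUT2 and HNF4G had means of 6.75 and 5.04 CPM over the 6 libraries. HNF4G was at 3.15, 3.63 and 3.49 CPM in overexpression 1, 2 and 3 and at 8.98, 5.37 and 5.60 CPM in controls 1, 2 and 3, without overlap (log2 difference -0.96, SE 0.30, edgeR adjusted p 0.542). By edgeR 0 of the 7 tested passed, 1 had an unadjusted p under 0.05, and the median log2 difference was -0.16. Of all genes tested, 6.49% had such a p, 7.52% were lower without overlap, as HNF4G was, and the median was 0.01.

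Basal, ciliated and neuroendocrine markers were sparse. Of 6 basal cell markers 2 were expressed, KRT15 at a mean of 6.55 CPM and TP63 at 3.92 CPM. Of 7 ciliated cell markers 2 were expressed, DNAH5 at 6.62 CPM and TPPP3 at 3.91 CPM. SYP, at 3.58 CPM, was the 1 neuroendocrine marker of 6 that was expressed. By edgeR 0 of 3, 0 of 4 and 0 of 1 tested genes of these lists passed, and 0 had an unadjusted p under 0.05. Their median log2 differences were 0.45, 0.18 and 0.05.

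LINC00261, a long non-coding RNA 2.4 kb from FOXA2, was picked out by its values. Its counts were 37, 20 and 46 across the SNHG5 libraries in order and 0, 14 and 26 across the Vector libraries (log2 difference 1.33, edgeR adjusted p 0.748).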
